A study of Mus musculus with 16 samples.

Results

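The nuclear genes that encode the subunits of respiratory complexes II to V were examined in RNA of mouse plantaris, an ankle plantar flexor of the hindlimb. Members were the genes of the deposited count table whose symbol was Sdha, Sdhb, Sdhc, Sdhd or Cyc1, or started with Uqcr, Cox4, Cox5, Cox6, Cox7, Cox8 or Atp5, leaving out pseudogene names in -ps, of which there were 0. The rule found 45 of the 17230 genes, of which 4 belong to complex II, 9 to complex III, 15 to complex IV and 17 to complex V, and all 45 passed the filter on low counts. Members were chosen by name and not by their measured values, although earlier results of these data were known when the set was chosen.

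Complex II oxidises succinate and passes the electrons to ubiquinone, complex III passes them on to cytochrome c, complex IV passes them to oxygen, and complex V, the ATP synthase, uses the proton gradient that complexes III and IV help to build. Complex II is encoded by nuclear genes alone, whereas complexes III, IV and V also hold subunits made from mitochondrial DNA. Adult striated muscle uses its own forms of several complex IV subunits, and oxidative fibres carry more of all these complexes than glycolytic fibres do.

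Libraries came from wild type mice (WT) and mice labelled TRIM28 mKO (KO), all 9 to 12 weeks old, after a sham operation (Sham) or myotenectomy (MTE), a surgery that places the plantaris under mechanical overload. TRIM28 is a corepressor that silences retroelements and some genes. The sources used here do not give the promoter or cell type behind the deletion, the time after surgery, or whether each library is a separate mouse. The p-values therefore cover only the spread among these libraries. The tables held 15 libraries for 16 labelled samples: WT Sham 1 to 4, WT MTE 1 to 4, KO MTE 1 to 4 and 3 KO Sham columns, which could not be matched to the 4 KO Sham labels and are called columns 1 to 3.

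Total counts ran from 21081030 to 69187920 per library, and the members took 0.678% to 1.31% of them. A pair of libraries stood apart from their groups. WT Sham 1 had a summed macrophage marker level of 3457 CPM, the usual depth-scaled count and here TMM-scaled, whereas the rest of WT Sham had 265 to 371, and 6.95% of its counts were mitochondrially encoded against 13.3% to 14.4%. KO Sham column 3 had the lowest total and a mitochondrial share of 20.5% against 11.3% and 12.2%. The 10 myofibre markers summed to 44957 CPM or more in every library, so the defining markers of skeletal muscle were present. Adjusted p-values come from edgeR's quasi-likelihood test with Benjamini-Hochberg adjustment over 17212 genes.

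Promoters of 4 members are printed because Sdhd, Uqcrh and Cox7a1 fell and Cox6a1 rose with overload in WT, and they differ in the binding motifs they hold. Of the 45 members, 34 had a promoter in the RefSeq table (GRCm38.p6), 250 bases before to 50 bases after the annotated start. Not matched were Atp5a1, Cox4i1, Uqcrc2, Cox4i2, Atp5mpl, Cox6a2, Uqcrb, Sdhc, Cox6c, Uqcrq and Cyc1. Capitals mark a motif found on either strand, CGCATGCG for NRF1, CCGGAAGT for GABPA, TCAAGGTCA for ERR and AAGATGGC for YY1, factors known to act on respiratory chain genes.
Sdhd, chr9:50603800-50604099, minus strand: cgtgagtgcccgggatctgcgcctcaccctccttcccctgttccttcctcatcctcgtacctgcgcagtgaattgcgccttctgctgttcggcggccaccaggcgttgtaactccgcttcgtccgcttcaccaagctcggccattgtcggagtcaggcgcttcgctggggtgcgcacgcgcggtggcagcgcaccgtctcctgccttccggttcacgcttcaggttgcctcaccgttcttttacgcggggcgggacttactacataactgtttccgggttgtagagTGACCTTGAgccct
Uqcrh, chr4:116075021-116075320, minus strand: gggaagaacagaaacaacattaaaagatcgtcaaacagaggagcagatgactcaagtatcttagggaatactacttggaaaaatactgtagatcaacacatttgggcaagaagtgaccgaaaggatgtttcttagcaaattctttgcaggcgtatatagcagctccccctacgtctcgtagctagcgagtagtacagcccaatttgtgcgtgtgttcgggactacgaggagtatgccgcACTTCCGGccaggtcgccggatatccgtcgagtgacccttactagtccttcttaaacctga
Cox6a1, chr5:115348909-115349208, minus strand: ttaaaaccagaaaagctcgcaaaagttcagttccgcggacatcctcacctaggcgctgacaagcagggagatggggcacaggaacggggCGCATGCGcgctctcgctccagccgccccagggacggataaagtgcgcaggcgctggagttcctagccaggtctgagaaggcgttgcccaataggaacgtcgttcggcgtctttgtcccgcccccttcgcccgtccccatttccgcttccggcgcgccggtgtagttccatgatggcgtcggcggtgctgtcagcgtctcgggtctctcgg
Cox7a1, chr7:30183921-30184220, plus strand: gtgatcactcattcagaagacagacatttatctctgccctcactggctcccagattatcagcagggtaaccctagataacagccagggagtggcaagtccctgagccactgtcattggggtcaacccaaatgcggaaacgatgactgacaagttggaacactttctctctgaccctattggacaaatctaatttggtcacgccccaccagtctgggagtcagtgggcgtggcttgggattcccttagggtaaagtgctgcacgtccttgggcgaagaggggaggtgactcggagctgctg
The Sdhd promoter held the ERR motif, that of Uqcrh the GABPA motif and that of Cox6a1 the NRF1 motif, while none of the 4 motifs was in the 300 bases of Cox7a1. Across the members, 7 of 34 promoters (20.6%) held the NRF1 motif against 2.07% of all 27025 genes, 4 (11.8%) the GABPA motif against 4.31%, 2 (5.88%) the ERR motif against 0.466% and 3 (8.82%) the YY1 motif against 3.19%. Of the overlapping motif sets, Uqcr11 held both NRF1 and GABPA motifs and Atp5j both NRF1 and YY1 motifs. Any of the 4 motifs was present in 14 of 34 member promoters (41.2%) and in 9.48% of all genes. A match describes letters in this window and says nothing of binding.

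Overload lowered the mRNA of many of these subunits in WT muscle. In WT MTE against WT Sham, 22 of 45 members fell, 1 rose and 22 were not called, against 11.2% of all genes tested called lower and 14.1% called higher. All 4 subunits of complex II fell, as did 3 of 9 of complex III, 5 of 15 of complex IV and 10 of 17 of complex V. The median log2 fold change was -0.43 over the members and 0.04 over all genes tested, and 41 of 45 members had a negative value (47.6% of all genes). In 21 members every WT MTE library lay below every WT Sham library, against 11% of genes. Added up over the members, WT Sham 1 to 4 held 9921, 11559, 11703 and 11380.1 CPM and WT MTE 1 to 4 held 8206, 7516, 7728 and 6829 CPM, a difference in means of -32.1% with no overlap between the groups. In bulk RNA, fewer cells of a type and less RNA per cell cannot be told apart.

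Of the 22 members that fell in WT, 13 were called lower in each of 26 alternatives, which include 15 fits that each left out a single library. The 13 were Sdha, Sdhb, Sdhd, Uqcrc2, Uqcrfs1, Uqcrh, Cox5a, Cox7a1, Cox7b, Atp5a1, Atp5b, Atp5c1 and Atp5o. The other 9 lost the call without WT Sham 2, among other libraries. The count fell to 13 without WT Sham 2 and to 14 without WT Sham 3, WT Sham 4 or WT MTE 3. It was 26 without WT Sham 1 and KO Sham column 3.

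**Figure D1:**
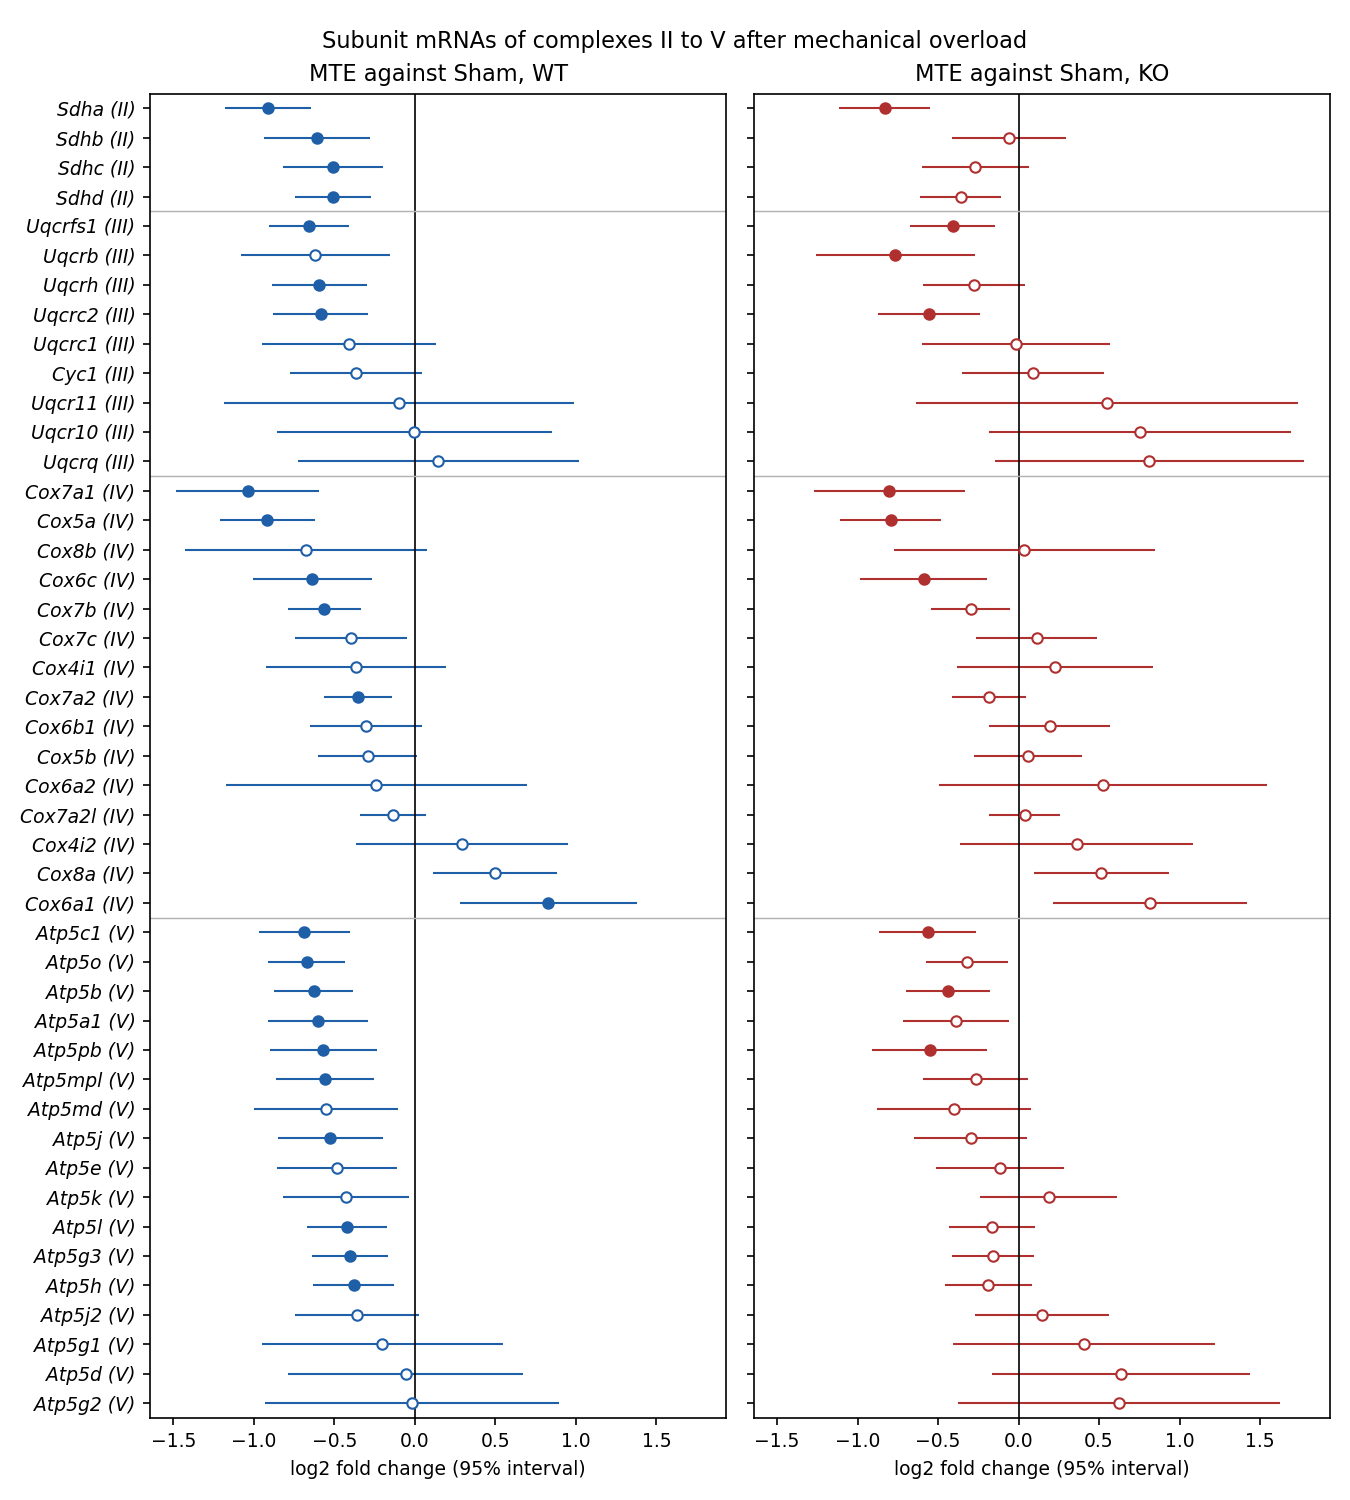
Log2 fold change of each member with overload in WT (left) and in KO (right), with approximate 95% intervals, ordered within each complex by the WT value. Filled points passed the adjusted p threshold of 0.05. In WT 22 members fell and 1 rose, against 11.2% of all genes called lower and 14.1% higher. In KO 10 fell and 0 rose, against 12.7% and 13.2%.

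All 4 genes of complex II fell with overload in WT, against 11.2% of all genes called lower. Sdha, the flavoprotein that oxidises succinate (ENSMUSG00000021577, chromosome 13, 74322254 to 74350280, minus strand, GRCm38), measured 522, 761, 743 and 723 CPM in WT Sham 1 to 4, 701.5, 715 and 786 in KO Sham columns 1 to 3, 366, 352, 369 and 374 in WT MTE 1 to 4, and 467, 385, 409.6 and 389 in KO MTE 1 to 4. It was 1.88-fold lower in WT MTE than in WT Sham (log2 fold change -0.91, SE 0.14, adjusted p = 0.00035), and fell in KO too (log2 fold change -0.83, SE 0.14, adjusted p = 0.00163). Every MTE library lay below every Sham library of its genotype, and the lowest Sham value belonged to WT Sham 1, without which the WT difference was larger. Sdhd, a membrane anchor of the complex (ENSMUSG00000000171, chromosome 9, 50596357 to 50603812, minus strand), measured 129, 155, 155 and 154 CPM in WT Sham 1 to 4, 160.2, 174 and 155 in KO Sham columns 1 to 3, 113, 104, 108 and 92.1 in WT MTE 1 to 4, and 144, 139, 118 and 107 in KO MTE 1 to 4. It fell in WT (log2 fold change -0.51, SE 0.12, adjusted p = 0.00707), whereas in KO the value missed the threshold (log2 fold change -0.36, SE 0.13, adjusted p = 0.0528) although the 2 KO groups did not overlap. The iron-sulfur subunit Sdhb and the anchor Sdhc also fell in WT (log2 fold change -0.61 and -0.51, adjusted p = 0.0159 and 0.0283). In KO both were uncalled, at -0.06 and -0.27 (adjusted p = 0.821 and 0.244). Summed over the complex, the difference in means with overload was -40.8% in WT and -32.8% in KO, and neither pair of groups overlapped.

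In complex III 3 of 9 members fell in WT, against 11.2% of all genes called lower. Uqcrfs1, the Rieske iron-sulfur protein (ENSMUSG00000038462, chromosome 13, 30540308 to 30545362, minus strand), measured 165, 217, 252 and 230.1 CPM in WT Sham 1 to 4, 210.3, 229.6 and 253 in KO Sham columns 1 to 3, 141, 140.0, 137 and 131 in WT MTE 1 to 4, and 179.8, 181, 174 and 162 in KO MTE 1 to 4. Its WT groups did not overlap (log2 fold change -0.66, SE 0.13, adjusted p = 0.00203), nor did its KO groups (log2 fold change -0.41, SE 0.14, adjusted p = 0.0392). The KO call was lost without WT Sham 4, without WT MTE 1 or 3, without KO Sham column 2 or 3, or without any KO MTE library (adjusted p = 0.0502 to 0.144), and when only the KO groups were fitted (adjusted p = 0.0677). Uqcrh, the hinge protein that binds cytochrome c1 (ENSMUSG00000063882, chromosome 4, 116066965 to 116075071, minus strand), measured 167, 248, 258 and 253 CPM in WT Sham 1 to 4, 213, 219 and 279 in KO Sham columns 1 to 3, 146, 160.0, 157 and 149.6 in WT MTE 1 to 4, and 166, 206, 220.0 and 191 in KO MTE 1 to 4. It fell in WT (log2 fold change -0.59, SE 0.15, adjusted p = 0.0104) and was uncalled in KO (log2 fold change -0.28, SE 0.16, adjusted p = 0.214); the KO groups overlapped. The core protein Uqcrc2 fell in both genotypes (log2 fold change -0.59 in WT and -0.56 in KO, adjusted p = 0.0114 and 0.0223), the KO call being lost without KO Sham column 3 (adjusted p = 0.119) or KO MTE 4 (0.0585). Uqcrb, a small structural subunit, was the only member called in KO and not in WT (-0.76, adjusted p = 0.0383, against -0.62, adjusted p = 0.0684). The KO call of Uqcrb was lost without KO Sham column 3 (adjusted p = 0.291), without WT MTE 3 or any KO MTE library (0.0503 to 0.0887), and with only the KO groups fitted (0.0584). Without KO Sham column 3 and WT Sham 1 the order turned, with -0.37 in KO (adjusted p = 0.110) and -0.82 in WT (adjusted p = 0.000436).

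The other members of complex III were not called in either genotype. Cyc1, the heme-bearing cytochrome c1, had -0.36 in WT and 0.09 in KO, and the core protein Uqcrc1 had -0.41 and -0.02 (log2 fold changes). The small subunits Uqcr10, Uqcr11 and Uqcrq had log2 fold changes of -0.0042, -0.10 and 0.15 in WT and of 0.75, 0.55 and 0.81 in KO, each with an SE of 0.44 or more. Uqcr11 illustrates the spread, at 45.02, 16.02, 28.6 and 26.8 CPM in WT Sham 1 to 4, 20.4, 51.3 and 5.70 in KO Sham columns 1 to 3, 45.3, 26.3, 26.6 and 10.2 in WT MTE 1 to 4, and 52.0, 51.7, 19.6 and 28.8 in KO MTE 1 to 4. Within KO Sham alone its values differed from one another by more than the group means of the 4 groups did. The approximate 95% interval of its WT change, -1.19 to 0.99, spans 0.

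In WT complex IV held both the most negative log2 fold change and the only rise among the members. Cox5a, which lies on the matrix side of the complex (ENSMUSG00000000088, chromosome 9, 57521274 to 57532426, plus strand), measured 114, 176, 160.0 and 183 CPM in WT Sham 1 to 4, 187, 181 and 230.2 in KO Sham columns 1 to 3, 90.3, 80.5, 79.8 and 84.6 in WT MTE 1 to 4, and 115, 111, 134 and 99.4 in KO MTE 1 to 4. It was 1.89-fold lower in WT MTE (log2 fold change -0.92, SE 0.15, adjusted p = 0.000693) and 1.74-fold lower in KO MTE (log2 fold change -0.80, SE 0.16, adjusted p = 0.00382), with no overlap in either genotype. Cox7b, a small transmembrane subunit (ENSMUSG00000031231, chromosome X, 106015700 to 106022450, plus strand), measured 201, 243, 256 and 239 CPM in WT Sham 1 to 4, 213, 239.6 and 226 in KO Sham columns 1 to 3, 163, 172, 164 and 138 in WT MTE 1 to 4, and 165, 205, 184 and 182 in KO MTE 1 to 4. It fell in WT (log2 fold change -0.56, SE 0.12, adjusted p = 0.00321), and in KO its groups did not overlap but the value missed the threshold (log2 fold change -0.30, SE 0.13, adjusted p = 0.09). Cox6c fell in both genotypes (log2 fold change -0.64 and -0.59, adjusted p = 0.0224 and 0.0429). Its KO call was lost without KO Sham column 3 (adjusted p = 0.240), without WT Sham 4, KO Sham column 2 or any MTE library of either genotype (0.05004 to 0.0924), with only the KO groups fitted (0.0672), and with WT Sham 1 and KO Sham column 3 both left out (-0.38, adjusted p = 0.0703). Cox4i1, Cox5b, Cox6b1, Cox7c and Cox7a2l were uncalled in both, with log2 fold changes of -0.40 to -0.13 in WT and of 0.04 to 0.23 in KO. Cox7a2l, known for joining complexes III and IV into supercomplexes rather than for catalysis, had counts more than 0.01 from a whole number in all 15 libraries, as happens when reads are split with other genes. Cox4i2, the form of Cox4 that other tissues use under low oxygen, lay at 0.446 to 1.41 CPM across libraries and was uncalled.

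Subunits 6A, 7A and 8 of complex IV exist as a heart and muscle form and a form found in most tissues. Cox6a2, the muscle form of 6A (ENSMUSG00000030785, chromosome 7, 128205435 to 128206387, minus strand), measured 91.0, 34.3, 54.8 and 50.4 CPM in WT Sham 1 to 4, 37.6, 87.2 and 16.4 in KO Sham columns 1 to 3, 83.9, 39.8, 45.5 and 25.7 in WT MTE 1 to 4, and 100.1, 83.2, 38.5 and 49.8 in KO MTE 1 to 4. It was uncalled in WT and in KO (log2 fold change -0.24, SE 0.48, adjusted p = 0.755 in WT; 0.52 in KO), and its sign in WT turned without WT Sham 1 (0.02). Cox6a1, the ubiquitous form (ENSMUSG00000041697, chromosome 5, 115345642 to 115348981, minus strand), measured 8.94, 4.35, 5.41 and 5.90 CPM in WT Sham 1 to 4, 5.80, 6.91 and 3.61 in KO Sham columns 1 to 3, 13.9, 11.7, 11.8 and 6.32 in WT MTE 1 to 4, and 11.1, 10.4, 6.94 and 10.3 in KO MTE 1 to 4. It was the only member that rose with overload in WT, 1.78-fold (log2 fold change 0.83, SE 0.28, adjusted p = 0.042), although the WT groups overlapped through WT Sham 1 and WT MTE 4. The call was lost without WT Sham 2, 3 or 4, without WT MTE 1, 2 or 3, without KO Sham column 1, and without KO MTE 1, 2 or 4 (adjusted p = 0.0504 to 0.125). It was also lost when only the WT groups were fitted (0.0713) or mitochondrially encoded genes were left out (0.0549). In KO the value was of the same size and missed the threshold (log2 fold change 0.82, SE 0.31, adjusted p = 0.0618), with every KO MTE library above every KO Sham column.

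Cox7a1, the muscle form of 7A (ENSMUSG00000074218, chromosome 7, 30184144 to 30186078, plus strand), measured 71.7, 89.4, 115 and 108 CPM in WT Sham 1 to 4, 90.02, 129 and 76.2 in KO Sham columns 1 to 3, 49.6, 57.2, 48.1 and 31.6 in WT MTE 1 to 4, and 66.6, 68.9, 45.2 and 45.3 in KO MTE 1 to 4. It had the most negative log2 fold change of the 45 members in WT, 2.06-fold lower (log2 fold change -1.04, SE 0.23, adjusted p = 0.00426), and fell in KO as well (log2 fold change -0.80, SE 0.24, adjusted p = 0.0257). The groups did not overlap in either genotype, but the KO call was lost without KO Sham column 2 or without KO MTE 3 or 4 (adjusted p = 0.0607 to 0.100). Cox7a2, the ubiquitous form (ENSMUSG00000032330, chromosome 9, 79755361 to 79759878, minus strand), measured 106, 118, 118 and 109.5 CPM in WT Sham 1 to 4, 127, 137 and 111 in KO Sham columns 1 to 3, 86.1, 91.5, 87.0 and 89.3 in WT MTE 1 to 4, and 99.97, 130.2, 109 and 101 in KO MTE 1 to 4. It fell in WT (log2 fold change -0.35, SE 0.11, adjusted p = 0.0282) and was uncalled in KO (log2 fold change -0.18, SE 0.12, adjusted p = 0.253). Its WT call was lost without WT Sham 2, 3 or 4 or without any WT MTE library (adjusted p = 0.0503 to 0.0778). Cox8b, the muscle form of subunit 8 (ENSMUSG00000025488, chromosome 7, 140898945 to 140900446, minus strand), measured 95.4, 64.5, 90.1 and 77.7 CPM in WT Sham 1 to 4, 67.6, 139 and 36.1 in KO Sham columns 1 to 3, 74.9, 51.8, 53.2 and 25.2 in WT MTE 1 to 4, and 99.9, 114, 48.5 and 69.9 in KO MTE 1 to 4. Its spread within groups left it uncalled (log2 fold change -0.67, SE 0.38, adjusted p = 0.219 in WT; 0.04, SE 0.41, in KO), and its sign in KO turned under several alternatives. Cox8a, the ubiquitous form (ENSMUSG00000035885, chromosome 19, 7215153 to 7217616, minus strand), measured 15.5, 9.12, 10.1 and 12.4 CPM in WT Sham 1 to 4, 12.0, 13.7 and 7.35 in KO Sham columns 1 to 3, 16.5, 15.9, 17.0 and 17.1 in WT MTE 1 to 4, and 15.2, 16.4, 13.1 and 18.5 in KO MTE 1 to 4. Every WT MTE library lay above every WT Sham library, yet the value missed the threshold (log2 fold change 0.49, SE 0.20, adjusted p = 0.0792), as it did in KO (log2 fold change 0.51, SE 0.21, adjusted p = 0.0876); without WT Sham 1 and KO Sham column 3 it was called higher in WT (0.61, adjusted p = 0.00317).

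A ratio of the 2 forms within a library does not depend on how libraries are scaled. The Cox6a2 to Cox6a1 ratio of CPM was 10.2, 7.89, 10.1 and 8.54 in WT Sham 1 to 4 and 6.02, 3.42, 3.86 and 4.07 in WT MTE 1 to 4. For Cox8b to Cox8a it was 6.14, 7.07, 8.91 and 6.26 in WT Sham and 4.54, 3.26, 3.12 and 1.47 in WT MTE, and for Cox7a1 to Cox7a2 it was 0.677, 0.755, 0.970 and 0.984 against 0.576, 0.625, 0.553 and 0.354. In each of the 3 pairs every WT MTE library lay below every WT Sham library. The mean log2 ratios differed by -1.11, -1.29 and -0.70, in that order, each with a two-sided exact permutation p of 0.0286, the smallest that 70 arrangements allow, and an adjusted p of 0.114 over the 12 ratio tests, which misses the threshold. In KO the Cox7a1 to Cox7a2 ratio was 0.710, 0.945 and 0.686 in Sham columns 1 to 3 and 0.666, 0.529, 0.414 and 0.449 in MTE, again without overlap (log2 difference -0.61, exact permutation p = 0.0571, adjusted 0.171). For Cox6a2 to Cox6a1 the KO difference was -0.11 (exact permutation p = 0.829) and for Cox8b to Cox8a -0.38 (exact permutation p = 0.343), and in both the KO groups overlapped. Whether the WT and KO differences themselves differ was not tested. KO against WT within MTE gave 0.65 for Cox6a2 to Cox6a1 and 0.81 for Cox8b to Cox8a (exact permutation p = 0.0857 and 0.143), with overlapping groups. Per transcript length the muscle form of 6A was 7.71 ± 0.966 times the ubiquitous form in WT Sham and 3.65 ± 0.969 times in WT MTE (SD, n = 4 each).

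**Figure D2:**
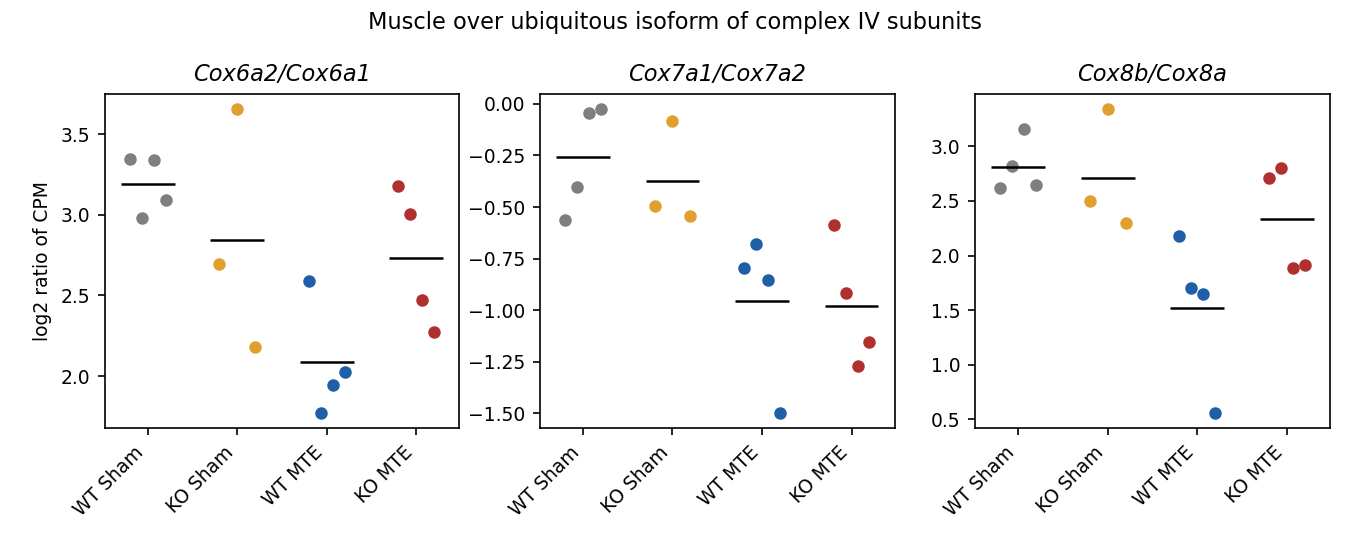
Log2 ratio of the CPM of the muscle form to that of the ubiquitous form of complex IV subunits 6A, 7A and 8; each point is a library and lines are group means. The WT means differ by -1.11, -0.70 and -1.29, and the WT MTE points lie below the WT Sham points in all 3 panels.

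In complex V 10 of 17 members fell in WT, against 11.2% of all genes called lower. In KO 3 of 17 (17.6%) fell, near the 12.7% of all genes. Per length, Atp5b averaged 971 and Atp5a1 518 CPM per kilobase over all libraries, the highest of the 45 members, and Cox4i2 was lowest at 1.06. Atp5b, the catalytic beta subunit (ENSMUSG00000025393, chromosome 10, 128083273 to 128090391, plus strand), measured 1814, 2332, 2059.8 and 2104 CPM in WT Sham 1 to 4, 2359.8, 2496 and 2310.3 in KO Sham columns 1 to 3, 1421, 1309, 1384 and 1259.5 in WT MTE 1 to 4, and 1786, 1752, 1749 and 1758 in KO MTE 1 to 4. It fell in WT (log2 fold change -0.63, SE 0.13, adjusted p = 0.00244) and in KO (log2 fold change -0.44, SE 0.13, adjusted p = 0.0279), with no overlap in either, and the KO call was lost without KO Sham column 1 or 2, without KO MTE 2, 3 or 4 (adjusted p = 0.0514 to 0.0634), and when only the KO groups were fitted (0.107). Atp5o, the stalk subunit that confers oligomycin sensitivity (ENSMUSG00000022956, chromosome 16, 91925214 to 91931687, minus strand), measured 292, 317, 346 and 346 CPM in WT Sham 1 to 4, 311, 353 and 304 in KO Sham columns 1 to 3, 229, 199.6, 213 and 174 in WT MTE 1 to 4, and 258, 267, 281 and 229 in KO MTE 1 to 4. It had the smallest adjusted p of the complex in WT (log2 fold change -0.67, SE 0.12, adjusted p = 0.00137), and in KO the groups did not overlap but the value missed the threshold (log2 fold change -0.32, SE 0.13, adjusted p = 0.0837).

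Further catalytic and stalk subunits also fell in WT. Atp5a1, the alpha subunit, Atp5c1, the gamma subunit of the central stalk, and Atp5pb, subunit b of the peripheral stalk, fell with log2 fold changes of -0.60, -0.69 and -0.57 (adjusted p = 0.0121, 0.00337 and 0.0239). In KO Atp5c1 and Atp5pb fell (-0.56 and -0.55, adjusted p = 0.0169 and 0.0377) and Atp5a1 was uncalled (-0.39, adjusted p = 0.101). The KO call of Atp5c1 was lost without KO Sham column 3 (adjusted p = 0.0764). That of Atp5pb was lost without KO Sham column 3 (0.225), without WT MTE 3 or any KO MTE library (0.0509 to 0.0796), with only the KO groups fitted (0.0699), and with WT Sham 1 and KO Sham column 3 both left out (-0.33, adjusted p = 0.0589). Also lower in WT were Atp5mpl, Atp5j, Atp5l, Atp5g3 and Atp5h, at -0.56 to -0.38, and none of these was called in KO. Of the 3 genes for the c ring, which turns in the membrane as protons pass, only Atp5g3 was called in WT (-0.41, adjusted p = 0.024). Atp5g1 and Atp5g2 had -0.20 and -0.02 with an SE of 0.38 and 0.47, and the difference between the 3 genes was not tested. Atp5d and Atp5e, the small subunits of the central stalk, were uncalled in both genotypes. So were Atp5j2, Atp5k and Atp5md, small membrane subunits, with log2 fold changes of -0.36, -0.43 and -0.55 in WT and 0.15, 0.19 and -0.40 in KO. With WT Sham 1 and KO Sham column 3 left out, Atp5md and Atp5k were called lower in WT (-0.75 and -0.48, adjusted p = 0.00107 and 0.0318), and the KO values of Atp5j2, Atp5k and Atp5md became -0.07, -0.06 and -0.05. Counts of Atp5g2, Atp5h and Atp5l in all 15 libraries and of Atp5g1 in 14 were also more than 0.01 from a whole number, so these values are less certain.

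**Figure D3:**
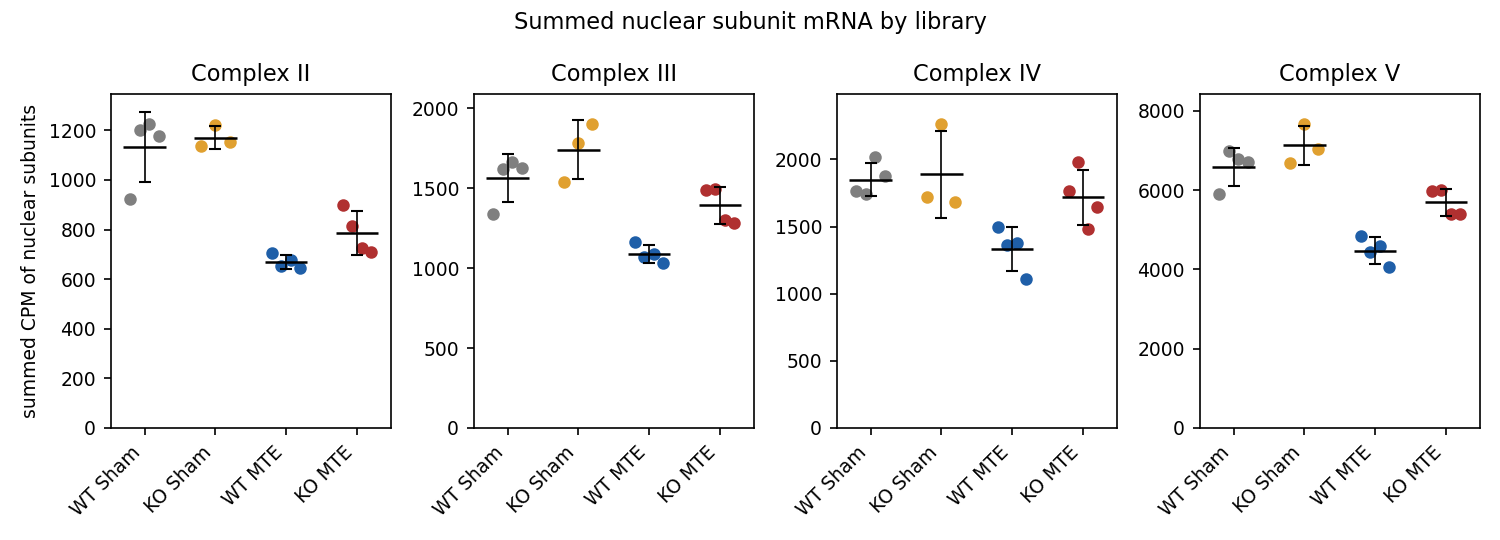
Summed CPM of the nuclear subunits of each complex in every library, with the group mean (line) and SD (bar); axes start at 0. In complexes II, III and V each MTE group lies below the Sham group of its genotype, and in complex IV this holds for WT.

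In KO muscle fewer members passed the test. Of 45 members, 10 fell and 0 rose in KO MTE against KO Sham, or 22.2% of members, against 12.7% of all genes called lower and 13.2% called higher. Every KO MTE library lay below every KO Sham column in 12 members (16.2% of genes) and above in 1 (19.9%). The median log2 fold change was -0.16 over the members and 0.04 over all genes, with 26 members below 0 (48% of genes). At an unadjusted p under 0.05, 14 members lay lower and 2 higher, against 40.4% of genes in either direction. Of the 23 members called in WT, 9 (39.1%) were called in KO, and these were 90% of the 10 KO calls. Summed over the members, KO Sham columns 1 to 3 held 11090.0, 12947 and 11770.5 CPM and KO MTE 1 to 4 held 10128, 10301, 8914 and 9028 CPM, a difference in means of -19.6% without overlap. The KO count changed with single libraries, and so did the share of all genes called lower, given in brackets. It was 6 without KO Sham column 2 (15.2%) and 4 without column 3 (5.53%). Without KO MTE 2, 3 and 4 it was 5 (7.6%), 4 (11.2%) and 3 (8.04%), and without WT MTE 3 it was 6 (11.2%). Without KO Sham column 2, 6 members were also called higher, against 14.5% of all genes. Fitted on the KO groups alone 5 were called lower (9.39%). With WT Sham 1 and KO Sham column 3 both left out the count was 8 (10.3%). Sdha and Cox5a were the members called lower in KO in all 25 alternatives.

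The test of the difference between the overload responses called no member. The KO response minus the WT response was positive in 43 of 45 members and below 0 in 2 (51.6% of genes), with a median of 0.26 on the log2 scale, and edgeR called 0 of 17212 genes, 0% in either direction, with 1 member at an unadjusted p under 0.05 (3.51% of genes). That member was Sdhb (0.55, SE 0.25, adjusted p = 0.989), named after its value was seen. The median SE of this difference over the members was 0.26, as large as the median difference itself. DESeq2 also called 0 members.

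Without overload no member was called between genotypes. In KO Sham against WT Sham 0 members were called by edgeR, 0 were at an unadjusted p under 0.05 and 0 by DESeq2, against 0.511% of all genes called (0.18% lower and 0.331% higher). Groups did not overlap in 0 members, against 2.93% of genes below and 4.54% above. With 20 of 45 members below 0 (51.4% of genes), log2 fold changes ran from -0.29 to 0.35 with a median of 0.03. For Atp5b the approximate 95% interval was -0.06 to 0.46 and for Sdha -0.19 to 0.38, whereas for Uqcr11 it was -1.34 to 1.01. Larger differences therefore remain possible in the members with wide spread. Relative to the 10 myofibre markers the members were higher in KO Sham, 16.6% ± 1.73 (SD, n = 3) against 11.3% ± 1.97 (n = 4). The myofibre marker sum itself was 72487 ± 8029 CPM against 100359 ± 12564 CPM, whereas the member sum was 7.14% higher in KO Sham and its groups overlapped. That marker sum is weighted towards Myh4 and Myh1, which averaged 18164 and 12351 CPM over all libraries. Log2 fold changes of the 10 markers ran from -1.48 to 0.07, with a median of -0.29. None of the 10 markers was called between the Sham groups.

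After overload most members had a higher fitted level in KO than in WT, but no member passed the threshold. This comparison shares its libraries with the overload comparisons. In KO MTE against WT MTE 42 of 45 members had a positive log2 fold change, with a median of 0.38 against -0.06 over all genes. At an unadjusted p under 0.05 there were 19 members, all higher, and 0 were called by edgeR (smallest adjusted p = 0.114), against 1.47% of all genes called, 0.256% lower and 1.21% higher, and 12.7% at an unadjusted p under 0.05. The other 3 members lay below 0, against 57.8% of genes. In 15 members every KO MTE library lay above every WT MTE library, against 5.58% of genes, and in 0 below, against 6.74%. Atp5h, subunit d of the peripheral stalk, had the smallest adjusted p (log2 fold change 0.45, SE 0.13, adjusted p = 0.114) and was chosen after its values were seen, which were 191, 269, 257 and 237 CPM in WT Sham 1 to 4, 248, 298 and 311 in KO Sham columns 1 to 3, 167, 193, 187 and 187 in WT MTE 1 to 4, and 228, 265, 242 and 267 in KO MTE 1 to 4. Atp5b had 0.39 (adjusted p = 0.165) and Cox5a 0.46 (adjusted p = 0.18), both without overlap. The exceptions in sign were Cox6a1, Cox8a and Cox4i2, at -0.18, -0.07 and -0.11, each with an interval that spans 0. The member sum was 26.7% higher in KO MTE, and for complexes II, III and V separately the groups did not overlap either.

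The calls between the MTE groups change with the fit. DESeq2 called 5 members higher (Cox7c, Atp5b, Atp5g3, Atp5h and Atp5o), edgeR on the MTE groups alone 3 (Cox5a, Atp5h and Atp5j), and edgeR without WT Sham 1 2 (Cox5a and Atp5h). Without WT Sham 1 and KO Sham column 3, neither of which is an MTE library, 9 were called (Uqcrfs1, Uqcrh, Cox5a, Cox5b, Atp5b, Atp5g3, Atp5h, Atp5j and Atp5mpl). In those fits 2.9%, 2.33%, 1.9% and 3.21% of all genes were called higher, in that order, against 1.21% in the main fit. Limma voom, the replicate block and the other scalings and filters called 0.

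**Figure D4:**
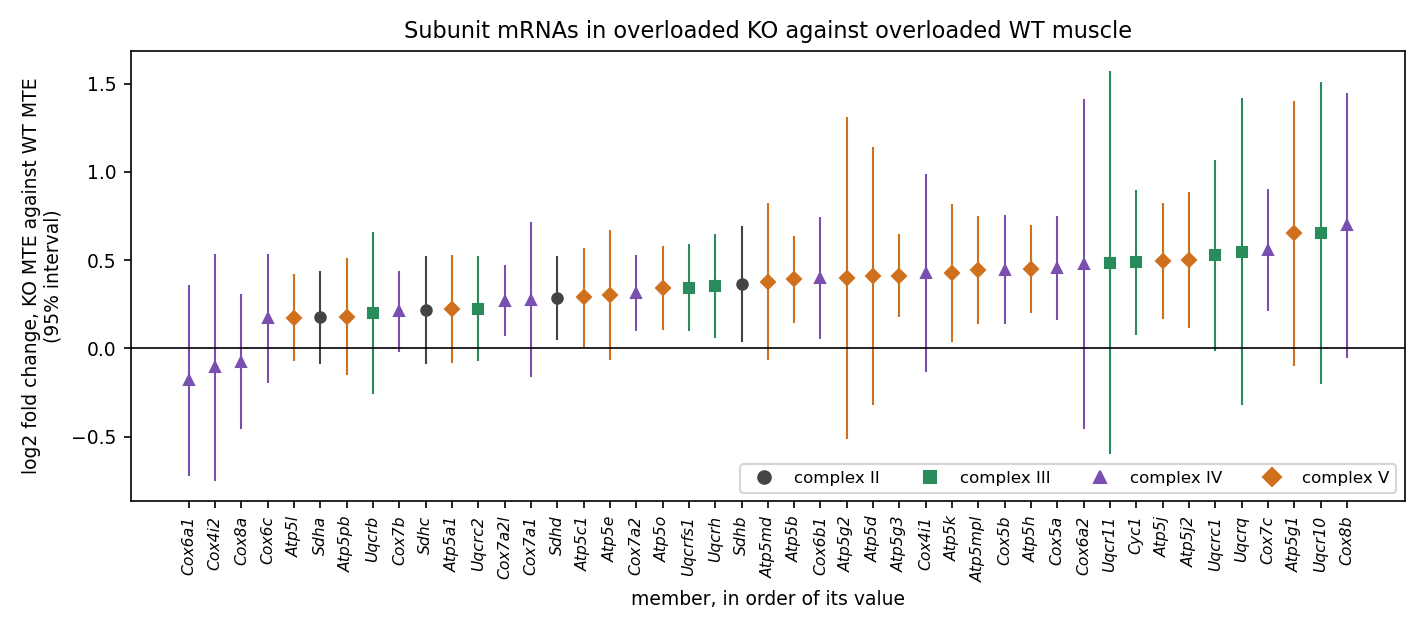
Log2 fold change of each member in KO MTE against WT MTE, with approximate 95% intervals, in order of the value. Symbols and colours give the complex. Of 45 members 42 lie above 0, and none passed the adjusted p threshold of 0.05.

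Some markers of other cell types and of slow fibres also differed between the groups. With overload 11.2% of all genes were called lower and 14.1% higher in WT, and 12.7% and 13.2% in KO. The marker counts are to be read against those shares. The 8 fibroblast markers summed to 2400 to 4044 CPM in WT Sham and 10363 to 26575 CPM in WT MTE, and 7 of 8 were called higher. In KO they summed to 1418 to 3903 CPM and 12743 to 16697 CPM, and 5 of 8 were called higher. The 12 macrophage markers summed to 265 to 3457 CPM in WT Sham and 1242 to 1665 CPM in WT MTE (1 called higher), and to 124 to 311 CPM in KO Sham and 895 to 1041 CPM in KO MTE (7 called higher). The 10 myofibre markers summed to 88347 to 117996 CPM in WT Sham and 51891 to 75668 CPM in WT MTE, with 5 of 10 called lower, and to 63877 to 79769 CPM in KO Sham and 44957 to 68592 CPM in KO MTE, with 4 of 10 called lower. Set against that sum, the members were 11.3% ± 1.97 in WT Sham and 12.2% ± 1.71 in WT MTE (SD, n = 4 each), and 16.6% ± 1.73 (n = 3) and 19.2% ± 3.13 (n = 4) in KO Sham and KO MTE, so the groups overlapped with overload in both genotypes. In KO MTE against WT MTE, all 12 macrophage, 8 fibroblast, 4 smooth muscle, 5 adipocyte and 5 erythroid markers had log2 fold changes below 0. So did 5 of 6 endothelial and 5 of 10 myofibre markers, and 57.8% of all genes. None of these markers was called. The macrophage sums above did not overlap, nor did the adipocyte sums, 159 to 174 CPM in WT and 112 to 150 CPM in KO. Between the MTE groups, the 6 slow fibre markers summed to 436 to 582 CPM in WT and 953 to 1823 CPM in KO. Tnnt1 and Tnnc1 were called higher in KO (log2 fold change 2.80 and 2.19), against 1.21% of all genes. Tnni1 was at 1.69 and uncalled. The slow myosin Myh7, Atp2a2 and Myl3 lay at 0.06, 0.06 and 0.20 and were uncalled. With overload 2 of these 6 were called higher in WT and 3 in KO, and 2 of 6 lay below 0 in each genotype. Of the other markers, 1 of 6 endothelial and 2 of 4 smooth muscle markers were called higher in WT, 2 of 4 smooth muscle markers higher and 1 lower in KO, 1 of 5 adipocyte markers lower in KO, and 0 of 5 erythroid markers in either. In WT the 1 of 12 macrophage and 1 of 6 endothelial markers called higher lay near or below the 14.1% of all genes. The macrophage sum of WT Sham was uneven, at 3457 CPM in WT Sham 1 and 265 to 371 CPM in WT Sham 2 to 4. WT Sham 2 to 4 lay below every WT MTE library and WT Sham 1 above. The part of these cell and fibre types in the members' changes was not tested.

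Genes that work beside the members were also called with overload. Of 38 nuclear subunits of complex I, which feeds electrons from NADH, 24 fell and 0 rose in WT (median -0.51), and 11 fell and 0 rose in KO (median -0.23). Over all genes 11.2% were called lower and 14.1% higher in WT, and 12.7% and 13.2% in KO, and the counts of these lists are to be read against those shares. The complex I list also holds Ndufa4l2, which is not a subunit of that complex and was uncalled in both. Of 9 genes listed for electron carriers and ADP or ATP export, 7 fell in WT and 7 in KO; the list also holds the complex IV subunit Ndufa4, which was called lower in WT and uncalled in KO. Among those that fell in both was the muscle ADP/ATP carrier Slc25a4 (log2 fold change -0.88 and -0.74, adjusted p = 0.00221 and 0.0113). Slc25a5, the ADP/ATP carrier of proliferating and other tissues, rose in WT (0.79, adjusted p = 0.0415). Of 37 assembly factors tested, 8 fell and 1 rose in WT, and 11 fell and 4 rose in KO, the last no larger a share than the 13.2% of all genes. That list also holds Atpif1, the inhibitor of ATP hydrolysis by complex V, which is not an assembly factor. Atpif1 was the 1 listed gene that rose in WT and 1 of the 4 in KO (0.92 and 0.67, adjusted p = 0.00184 and 0.0217). Lrpprc, also listed, which stabilises mitochondrial mRNAs, fell in both (-0.74 and -0.74, adjusted p = 0.000792 and 0.00199). Between the MTE groups 3 of 37 assembly factors were called higher in KO and 0 lower, against 1.21% and 0.256% of all genes. They were Uqcc1, Cox17 and Atpaf1, factors for complexes III, IV and V (0.63, 0.57 and 0.63, adjusted p = 0.045, 0.0488 and 0.0412), all close to the threshold. Of 14 regulators of mitochondrial genes 0 were called in WT, against 25.3% of all genes in either direction. In KO 3 were called lower and 0 higher, against 12.7% and 13.2% of all genes: Ppargc1a, Tfam and Gabpa (-1.02, -0.91 and -0.55, adjusted p = 0.0266, 0.0102 and 0.0487). Whether those responses differ between genotypes is a test that called 0 genes.

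The partner subunits made from mitochondrial DNA had a wide spread between libraries. The 6 mitochondrially encoded subunits summed to 28162 to 69778 CPM in WT Sham and 24566 to 40368 CPM in WT MTE. Of these 1 of 6, mt-Co2, was called lower (-0.74, adjusted p = 0.0485), against 11.2% of all genes. In KO they summed to 47456 to 119647 CPM in Sham and 28832 to 31630 CPM in MTE, and 5 of 6 were called lower, against 12.7% of all genes. The Sham sums were uneven, at 28162 CPM in WT Sham 1 and 63708 to 69778 CPM in WT Sham 2 to 4. In KO Sham they were 47456, 49320 and 119647 CPM in columns 1 to 3. For complex IV the ratio of mitochondrially encoded to nuclear mRNA was 13.4 to 34.2 in WT Sham, 18.2 to 59.4 in KO Sham, 14.0 to 30.2 in WT MTE and 13.6 to 17.5 in KO MTE. The lowest WT Sham value was in WT Sham 1 and the highest KO Sham value in column 3.

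Within groups, members rich in G and C deviated together from library to library. The coding sequences of 2 members of complex III show the range, as their first 120 bases in GENCODE M21 with every G and C in capitals.
Uqcrb: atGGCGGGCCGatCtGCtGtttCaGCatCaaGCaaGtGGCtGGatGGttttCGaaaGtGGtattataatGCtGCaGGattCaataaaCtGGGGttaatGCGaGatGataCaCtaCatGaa
Uqcr11: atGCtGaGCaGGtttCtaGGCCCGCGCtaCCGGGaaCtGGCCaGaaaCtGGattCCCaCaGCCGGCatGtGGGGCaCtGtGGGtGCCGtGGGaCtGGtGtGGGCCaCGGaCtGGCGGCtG
The stretch of Uqcrb (chromosome 13) is 44.2% G and C and that of Uqcr11 (chromosome 10) 65.8%, and the whole transcripts are 42.2% and 58.9%. In the 15 members with the highest GC content (54.6% to 61.1%) the median within-group SD of log2 CPM was 0.431, against 0.222 in the 15 with the lowest (42.0% to 49.0%) and 0.185 in the middle 15. Relative to its group mean, KO Sham column 2 was 0.55 higher in the GC-rich members and -0.02 in the GC-poor ones, while column 3 was at -0.55 and 0.14. WT MTE 4 and KO MTE 3 were low in GC-rich members (-0.54 and -0.45) and WT MTE 1 high (0.41). Across the 45 members, a library's deviation correlated with GC content at -0.65 in KO Sham column 3 and 0.58 in column 2, and across 7753 genes of at least 10 CPM at -0.67 and 0.72. The points of such a correlation share a library and are not replicates. Uqcrq, Atp5g1 and Cox6a2, of middle or low GC content, followed the GC-rich members in the plot of deviations.

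Calls were unevenly spread over GC content. Of members called lower in WT, 10 were in the lowest group of 15, 9 in the middle and 3 in the highest, and in KO 7, 2 and 1. The median log2 fold change of the 3 groups was -0.56, -0.41 and -0.36 in WT and -0.40, -0.18 and 0.23 in KO. This trend was not confined to the members. Log2 fold change correlated with GC content over genes in general at 0.17 in WT and 0.36 in KO, and over the members at 0.48 and 0.57. The share of all genes called at like GC content is not given here. With a smooth trend on GC content removed from each library, an alternative chosen after seeing the data, 30 members were called lower and 1 higher in WT. In KO 17 were called lower, and in KO MTE against WT MTE 3 higher (Cyc1, Uqcrc1 and Atp5mpl). Calls over all genes rose in that fit too. In WT 18% were called lower and 16.3% higher, against 11.2% and 14.1% in the main fit. In KO 16% were called lower, against 12.7%, and between the MTE groups 2.84% higher, against 1.21%.

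**Figure D5:**
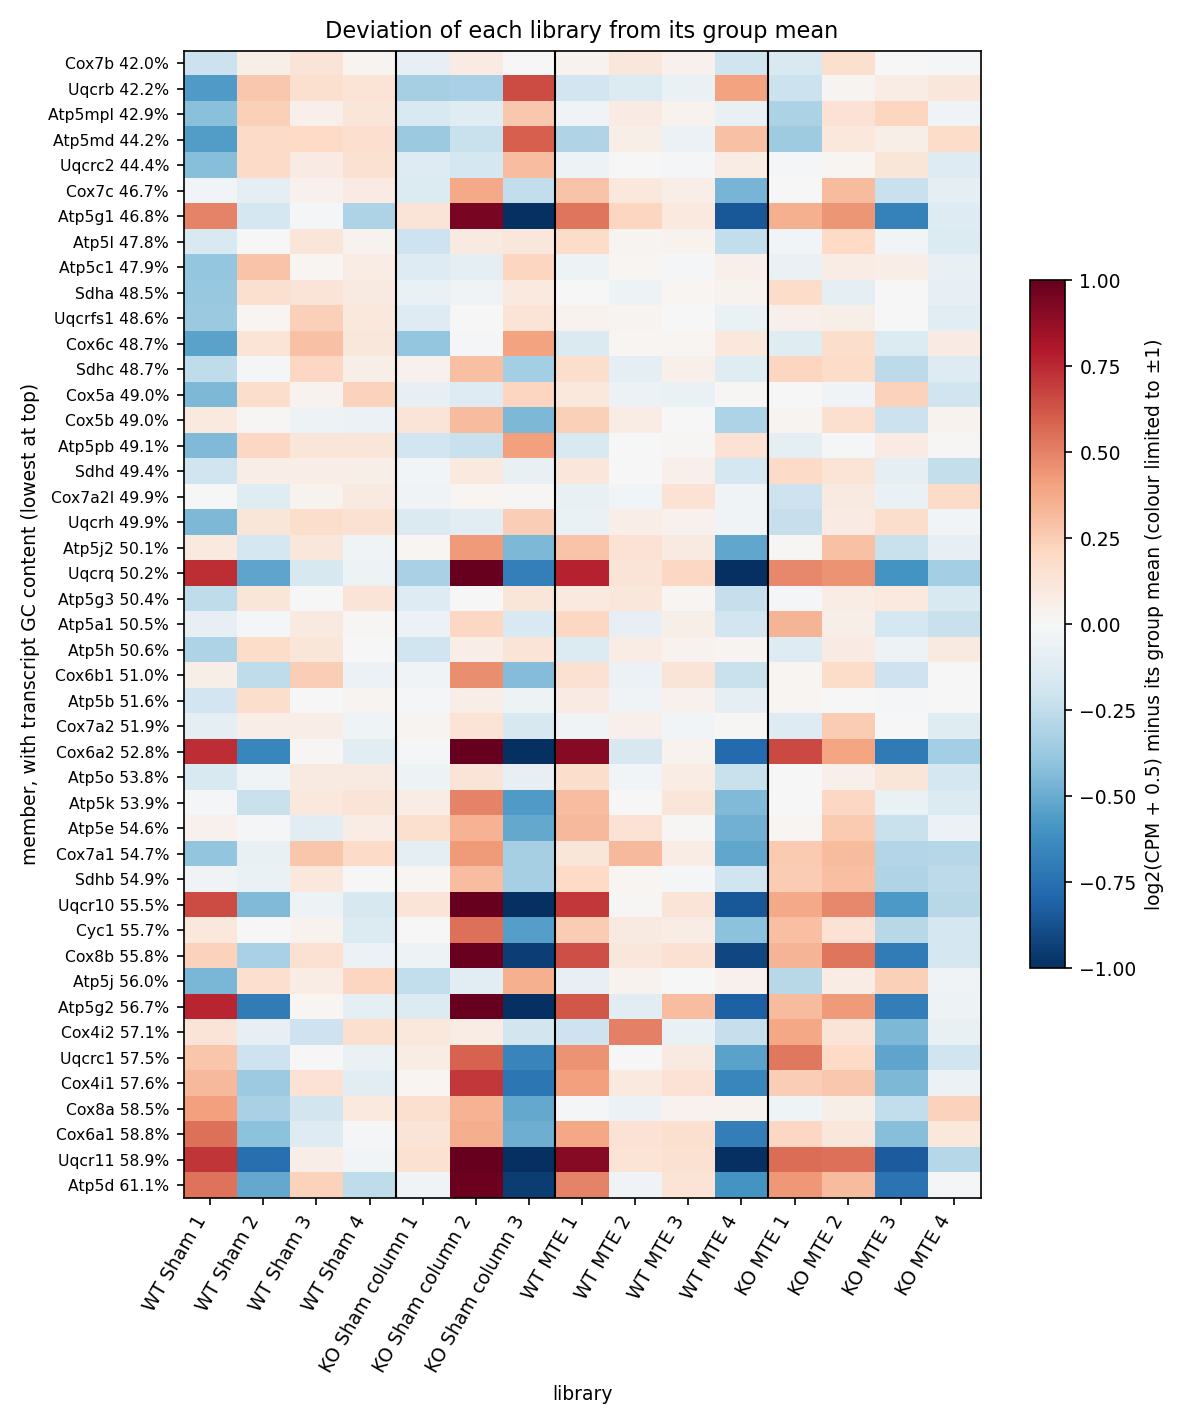
Deviation of log2(CPM + 0.5) from its group mean for each member (rows, from lowest transcript GC content at the top) in each library (columns); red is above and blue below the mean, with colours limited to 1 in either direction. The GC-rich rows at the bottom change colour together, red in KO Sham column 2 and blue in column 3.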

How the data were processed

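RNA sequencing libraries of plantaris muscle were analysed from the authors' deposited table of estimated counts per gene. STAR, RSEM and edgeR, with the genome build GRCm38, are named in the submitters' processing notes, and the sources used here do not give the strand setting of the counting. Estimated counts, as deposited, were rounded. The filterByExpr filter left 17212 of 17230 genes, which were scaled by TMM and fitted with 4 group means in edgeR 4.0.16 (robust quasi-likelihood, R 4.3.3) over all 15 libraries, with Benjamini-Hochberg adjustment and a threshold of 0.05. Totals of 21081030 to 69187920 counts make counting error small beside the spread between libraries. Alternatives used limma 3.58.1, DESeq2 1.42.0, other scalings and filters, single libraries left out and a GC content offset. The scripts were tested on simulated data. Gene positions, lengths and GC content came from GENCODE M21 (GRCm38).

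Members and lists were chosen with earlier results of these data known. Members described in full were the 2 with the smallest p in WT in each complex at a mean of at least 10 CPM, those of the isoform pairs, and those called against the majority of their complex or between genotypes. Of 5 isoform pairs listed, 3 were used. Adjusted p-values in the authors' deposited table of comparisons were counted as they stand. KO Sham columns carry no label that ties them to a sample.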

Additional observations from a re-analysis of the deposited data

Results flagged for a closer look

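In 87 groups of 4 libraries, 7 had a library far from the other 3, where chance gives about 1 in 20. WT Sham 1 was the low library in 6 of them. Its Sdha level was 521.7 CPM while WT Sham 2 to 4 had 723.1 to 760.9. Sdhd was at 128.9 CPM against 154 to 155.1, and Uqcrh at 166.5 CPM against 248.3 to 257.7. The sum of complex II was 921.9 CPM against 1178 to 1226 and that of complex III 1340 CPM against 1624 to 1667. Mitochondrially encoded mRNA of complex IV summed to 23750 CPM there against 55000 to 59760. In WT MTE 4 mitochondrially encoded mRNA of complex III stood at 4373 CPM against 2733 to 2985 in the other WT MTE libraries.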

How the results depend on the processing

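With a single library left out, the members called lower in WT numbered 13 to 25 and those called higher 0 to 2. In KO 3 to 11 were called lower and 0 to 6 higher, and in KO MTE against WT MTE 0 to 2 higher. The share of all genes called lower in these fits ran from 7.24% to 17.6% in WT and from 5.53% to 15.8% in KO. Called higher were 10.1% to 21.4% in WT, 7.42% to 18.2% in KO and 0.477% to 1.9% between the MTE groups. Members called higher in WT numbered 0 with mitochondrially encoded genes left out or only the WT groups fitted, and 2 with the replicate block or without WT Sham 1 and KO Sham column 3. In KO the lower calls were 5 with only the KO groups (9.39% of all genes) and 17 with the GC content offset (16%). DESeq2 called 1 higher in KO (15.4% of all genes). In KO MTE against WT MTE, DESeq2 called 5 higher, the MTE groups alone 3, the fit without WT Sham 1 and KO Sham column 3 9, and the GC content offset 3. The cause was not tested. The log2 fold change of Cox6a2, overload in WT, turned to 0.022 without WT Sham 1 and KO Sham column 3 (-0.64 to 0.022 with a single library left out). That of Cox8b, overload in KO, turned to -0.00351 with RLE size factors, -0.00235 with DESeq2, -0.33 without those 2 libraries and -0.28 with the GC content offset (-0.31 to 0.68 with a single library left out), and that of Cox8a, overload in KO, to -0.034 with the GC content offset. With a single library left out, log2 ratios ran from -0.44 to 0.30 for Cox6a2 to Cox6a1 in KO, from -0.21 to 0.0704 for Cox7a1 to Cox7a2 between MTE groups and from -0.41 to 0.11 for Cox8b to Cox8a between Sham groups. A set of 40 values, of single members and ratios but not of all 45 members, was followed over the alternatives. Of the outcomes, 824 kept their direction and side of the threshold, 38 lost a call, 23 gained one and 21 turned direction. Call losses of members outside this set, such as Uqcrb and Cox6c in KO, are not in these counts. The replicate block gave 26 lower calls in WT and 0 calls between the MTE groups. Same-numbered libraries correlated at 0.314, 0.171, -0.008 and 0.166 (WT Sham with WT MTE) and 0.458, 0.182, 0.065 and 0.224 (WT MTE with KO MTE), so the numbers were not taken to pair them, and WT Sham 3 correlated better with WT MTE 4 (0.287). No block was fitted with the KO Sham columns, which carry no usable number.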

Other observations

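The authors' deposited table of comparisons holds 17217 genes and all 45 members. Its columns for WT MTE against KO MTE and for WT Sham against WT MTE hold the same value for all 17217 genes. In the authors' deposited table both columns have 9 members at an FDR under 0.05, Atp5b, Atp5g3, Atp5h, Atp5j, Atp5mpl, Cox5a, Cox5b, Cox7c and Uqcrfs1, among 1201 genes. The headers cannot both be right, so these 9 are not to be taken as an overload result in WT. All but Cox7c were called here in KO MTE against WT MTE without WT Sham 1 and KO Sham column 3. Sdha, Cox7a1 and Atp5o, called lower here with overload in WT, are not among the 9. For KO Sham against KO MTE the authors' deposited table has 9 members under 0.05, Atp5c1, Atp5pb, Cox5a, Cox6a1, Cox6c, Cox7a1, Sdha, Uqcrb and Uqcrc2, among 4940 genes. For WT Sham against KO Sham it has 0 members among 122 genes.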
